A study of Mus musculus with 12 samples.

Results

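Genes that encode collagen hydroxylases and lysyl oxidases were examined in mouse mesenchymal stem cells (MSCs) kept at 2% or 21% oxygen. They were 10 of the 21938 protein-coding genes of the annotation: the prolyl 4-hydroxylase subunit genes P4ha1, P4ha2 and P4ha3, the lysyl hydroxylase genes Plod1, Plod2 and Plod3, and the lysyl oxidase genes Lox, Loxl1, Loxl2 and Loxl3. The genes were selected by name and function, and the choice was made on results of these same peak lists: a wide H3K27ac interval over P4ha1 that was called at 21% oxygen alone was part of it. H3K27ac calls that differed between the oxygen levels are therefore given as a description, with no test. Every peak in a gene body or within 20 kb on either side of it (the gene window) was read, which gave 36 of the 22555 distinct intervals of the series.

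MSCs are stromal cells that can form bone, cartilage and fat. They came from wild-type male C57BL6/N mice of 3 to 5 months. The labels give bone marrow as the source and the study's methods the hind-limb bones. According to these methods all cells were first grown at 2% oxygen and sorted as CD45-/TER119-/CD140a+/Sca-1+, and then were returned to 2% oxygen (hypoxia) or moved to 21% oxygen (normoxia). The labels give culture at 2% or 21% oxygen with the sort on day 12. In ChIP-seq, DNA bound to a modified histone is immunoprecipitated and sequenced, here for histone H3 acetylated on lysine 27 (H3K27ac), as at enhancers and promoters in use, or trimethylated on lysine 4 (H3K4me3), as at promoters. There were 12 libraries in 6 groups of 2, with each mark and an input control at each oxygen level, and 4 peak lists were deposited by the authors, 1 for each mark at each oxygen level.

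Each list was called from both libraries of its group, so the lists hold neither the spread between replicates nor read counts. The depth behind each peak is unknown and no difference below has a replicate check. The lists held 15203 (hypoxia) and 14832 (normoxia) H3K27ac peaks, and 14606 and 14603 H3K4me3 peaks. No interval overlapped another in part, since the 4 lists are views of a joint segmentation in steps of 500 bp. Of 10 mesenchymal marker genes, 9 had H3K4me3 within 1 kb of a start and 8 had H3K27ac, at either oxygen level. Of 4 endothelial marker genes, 1 (Kdr) had H3K4me3 at a start and 0 had H3K27ac. Ptprc, which encodes CD45, had neither mark at a start. Ly6a, the gene of the sort marker Sca-1, lacked H3K4me3 at its start, and Eng and Nt5e lacked H3K27ac.

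Collagen is modified in the endoplasmic reticulum and again after secretion. Prolyl 4-hydroxylases form the hydroxyproline that keeps the triple helix stable, and lysyl hydroxylases form the hydroxylysine from which sugars and the stronger crosslinks are built. Lysyl oxidases are copper enzymes that oxidise lysine and hydroxylysine outside the cell to start crosslinking, and all of these enzymes use molecular oxygen as a substrate. Several of the genes are known targets of the hypoxia-inducible factors, which bind hypoxia response elements with the core ACGTG.

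Across the 10 windows, which covered 763 kb in all, the H3K27ac lists covered 269.8 kb in hypoxia and 273.8 kb in normoxia, or 35.4% and 35.9% of the windows. The totals were nearly equal although intervals called at 1 oxygen level alone lay on both sides. Normoxia-only H3K27ac covered 24.0 kb, all of it in P4ha1, and hypoxia-only H3K27ac covered 20.0 kb in P4ha2, Plod1 and Loxl3. In the other 6 genes the intervals called were identical at both oxygen levels. H3K4me3 covered 47.0 kb in 13 intervals, the same at both oxygen levels.

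**Figure D1:**
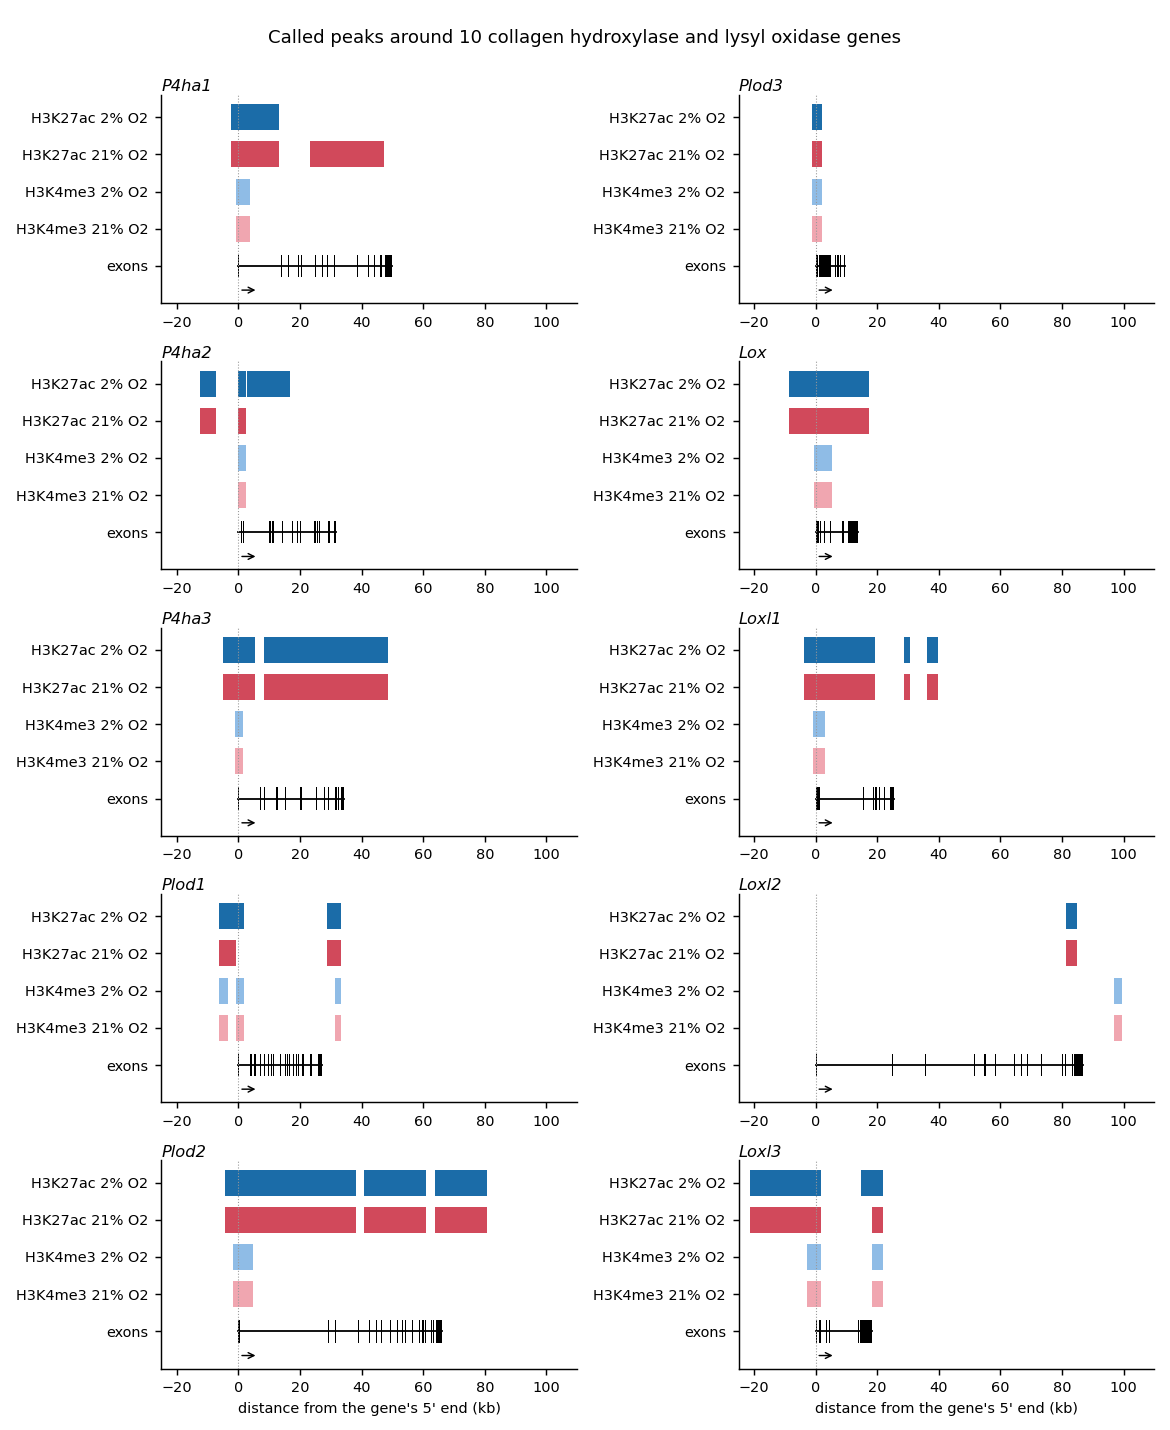
H3K27ac (dark bars) and H3K4me3 (light bars) intervals called at 2% oxygen (blue) and 21% oxygen (red) around the 10 genes, against the distance from the gene's 5′ end in kb, in the direction of transcription (arrow). Exons below (black) are drawn with a minimum width, touching intervals appear as 1 bar, and the blue and red rows differ at P4ha1, P4ha2, Plod1 and Loxl3 and nowhere else.

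H3K4me3 lay within 1 kb of an annotated start in 9 of the 10 genes in hypoxia, against 58.9% of all protein-coding genes, and in 9 of 10 in normoxia, against 58.9%. H3K27ac did so in 9 of 10 in hypoxia, against 37.6%, and in 9 of 10 in normoxia, against 37.0%. The exception was Loxl2 for either mark and either oxygen level. Hypoxia-only H3K27ac intervals lay in 3 of the 10 windows, beside 4.70% of all protein-coding genes, and a normoxia-only interval lay in 1 of 10, beside 1.15%. An interval of either kind lay in 4 of 10, beside 5.81%. Nothing is read from the last 3 counts, because the choice of genes used that contrast. No window held an H3K4me3 interval called at 1 oxygen level alone, which 0.0638% of all protein-coding genes did.

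The prolyl 4-hydroxylase genes held the widest differences in called intervals. The P4ha1 interval was part of the choice of genes, so nothing is read from the place of this family. Prolyl 4-hydroxylase joins catalytic alpha subunits, encoded by P4ha1, P4ha2 or P4ha3, with beta subunits, the protein disulfide isomerase encoded by P4hb. By called width, P4ha1 carried more H3K27ac in normoxia and P4ha2 more in hypoxia, while P4ha3 carried the same intervals in both. The 3 windows together had 88.0 kb of H3K27ac in hypoxia and 98.0 kb in normoxia.

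P4ha1 (ENSMUSG00000019916.14), the gene of the alpha subunit type I, lies on chromosome 10 at 59323296-59373304 on the plus strand (mm10). Its window held 15.5 kb of H3K27ac in hypoxia and 39.5 kb in normoxia, and the share of the gene body covered was 26.4% and 74.4%. The 5′ part had the same boundaries at both oxygen levels: 3 touching H3K27ac intervals ran from -2.29 to 13.2 kb relative to the 5′ end, and the middle one, of 4.5 kb, also carried H3K4me3. Their H3K27ac scores, from upstream on, were 97, 130 and 63 in hypoxia and 97, 127 and 52 in normoxia, so no raw score was higher in normoxia. As percentiles of their lists they stood at 42.1, 64.5 and 15.4 in hypoxia and at 46.6, 65.6 and 3.14 in normoxia. The difference was an interval of 24.0 kb at chr10:59346501-59370500, called for H3K27ac in the normoxia list alone. It ran from 23.2 to 47.2 kb after the 5′ end, over exons 6 to 14 of 15, and 95.5% of it was intron. The 3′-most exon lay outside it.

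The nearest H3K27ac interval of the hypoxia list ended 10000 bp before it. No called interval lay within 69000 bp on its other side. Its peak score, a value of the caller with no stated definition that runs from 50 to 160 and is otherwise 1000, was 63. That placed it at the 17.0 percentile of the normoxia H3K27ac list, whose median score was 102. None of the 218 normoxia-only H3K27ac intervals was wider and 1 other was as wide, their median being 3.5 kb, and 60 of the 218 had a higher score. It was absent when the lowest-scoring 25% of each list was left out.

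Most of the H3K27ac within P4ha1 in normoxia came from this interval, and the interval took up 48.0% of the gene body. Ranked by the bases of the gene body under normoxia-only H3K27ac, P4ha1 was first of 141 genes that had any. The next were Nptn with 23.5 kb, or 31.0% of its body, Ppp3ca with 18 kb, Nav1 and Tbl1xr1 with 15 kb each, and Rspo2 and Vapa with 14.5 kb each. Nptn encodes the adhesion protein neuroplastin. No spread is known for these widths, so neighbours in this order are not told apart. The P4ha1 interval was itself part of the choice of genes. Its width among the normoxia-only intervals and the rank of P4ha1 are therefore descriptions of what was chosen, and nothing is read from them.

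P4ha2 (ENSMUSG00000018906.14), the gene of the alpha subunit type II, lies on chromosome 11 at 54100095-54131665 on the plus strand. Its window held 22.0 kb of H3K27ac in hypoxia and 8.0 kb in normoxia, and the share of the gene body covered was 52.0% and 7.62%. A 5.5 kb interval upstream and the 2.5 kb promoter interval were called at both oxygen levels, and the latter carried H3K4me3 as well. The difference was an interval of 14.0 kb at chr11:54103001-54117000, called for H3K27ac in hypoxia alone. It ran from 2.91 to 16.9 kb after the 5′ end, over exons 3 to 6 of 16, and 96.5% of it was intron.

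This interval differed from that of P4ha1 in its score and in its position. Its score was 125, at the 57.4 percentile of the hypoxia H3K27ac list, and only 12 of the 589 hypoxia-only intervals had a higher one, against a median of 58. In width, 23 of the 589 were wider. It began 500 bp, 1 step of the segmentation, after the end of the promoter interval, which was also called in normoxia. In the hypoxia list H3K27ac thus reached further into the gene, with a gap of that 1 step. The interval no longer counted as hypoxia-only when peaks within 1000 bp were joined, or when a peak of the other oxygen level within 1000 bp was not allowed. By the bases of the gene body under hypoxia-only H3K27ac, P4ha2 ranked 22 of 470 genes. The next interval outside its window, 30095 bp from the gene body, was hypoxia-only as well and lay nearest to Pdlim4.

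P4ha3 (ENSMUSG00000051048.17), the gene of the alpha subunit type III, lies on chromosome 7 at 100285520-100319699 on the plus strand. Its window held 50.5 kb of H3K27ac at either oxygen level, and 91.2% of the gene body was covered in each list. The widest interval of the 10 windows was found here: 40.0 kb of H3K27ac without H3K4me3, from 8.48 kb after the 5′ end to beyond the 3′ end of the gene. Its score was 92 in hypoxia and 106 in normoxia. The promoter interval, with H3K4me3, had the score 1000 in both. The 4.0 kb intervals on either side of the promoter went the other way, with 82 in hypoxia and 69 in normoxia upstream and 1000 and 131 downstream.

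**Figure D2:**
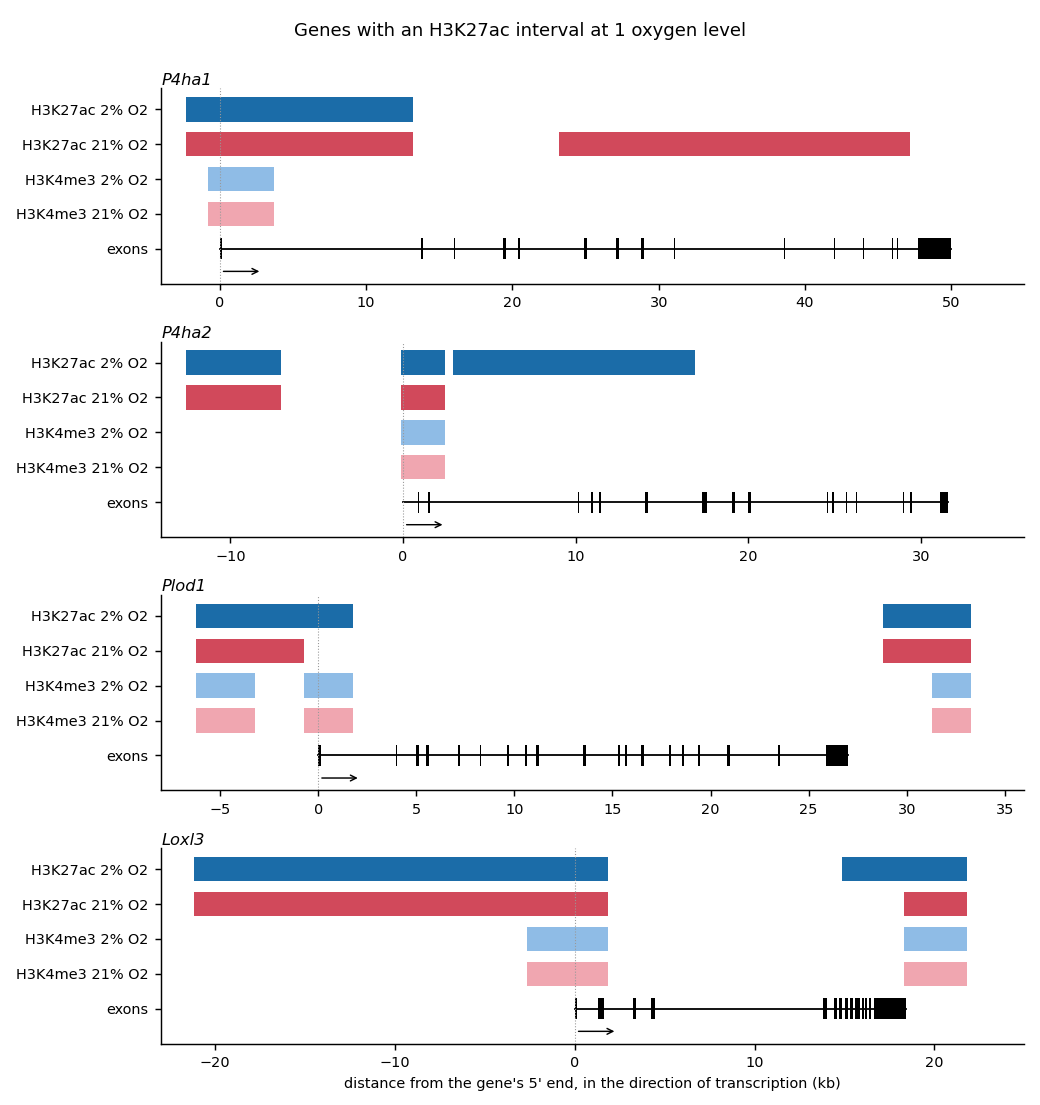
The 4 genes with an H3K27ac interval called at 1 oxygen level alone, drawn in the same way with an own scale of distance from the 5′ end (kb) for each gene; blue is 2% oxygen and red is 21% oxygen. The 24.0 kb normoxia-only interval of P4ha1 stands 10000 bp apart from the interval before it, whereas the 14.0 kb hypoxia-only interval of P4ha2 follows the promoter interval after 500 bp, and those of Plod1 and Loxl3 touch an interval called at both oxygen levels.

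The promoter sequences of 5 of the genes were read, because they lie under H3K4me3 at both oxygen levels. The condition-specific H3K27ac interval lay on the promoter in Plod1, began 500 bp after the promoter interval in P4ha2 and lay far inside the gene in P4ha1, and P4ha3 and Plod3 had none. RefSeq promoter sequences (GRCm38.p6, the mm10 build) were given for P4ha1, P4ha2, P4ha3, Plod1 and Plod3, and there was no entry for Plod2, Lox, Loxl1, Loxl2 and Loxl3. Each sequence below runs 5′ to 3′ on the strand of the gene, from 250 bases before the RefSeq start to 30 bases from it on, and capitals mark the letters ACGTG or, for the opposite strand, CACGT. Each lies whole within the H3K4me3 interval at its gene's start, and that of Plod1 within the H3K27ac interval called in hypoxia alone.
P4ha1, chr10:59323046-59323325, plus strand: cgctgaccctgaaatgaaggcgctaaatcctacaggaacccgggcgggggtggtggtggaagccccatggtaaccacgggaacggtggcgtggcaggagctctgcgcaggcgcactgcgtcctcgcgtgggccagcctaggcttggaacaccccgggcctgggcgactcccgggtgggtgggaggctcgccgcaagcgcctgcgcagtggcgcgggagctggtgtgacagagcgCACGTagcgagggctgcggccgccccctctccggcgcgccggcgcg
P4ha2, chr11:54100674-54100953, plus strand: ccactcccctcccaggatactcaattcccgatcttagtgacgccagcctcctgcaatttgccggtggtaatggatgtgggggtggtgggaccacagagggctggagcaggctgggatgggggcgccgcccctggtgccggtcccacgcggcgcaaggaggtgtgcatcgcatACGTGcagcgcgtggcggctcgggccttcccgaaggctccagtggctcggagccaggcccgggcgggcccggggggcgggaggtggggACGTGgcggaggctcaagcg
P4ha3, chr7:100285270-100285549, plus strand: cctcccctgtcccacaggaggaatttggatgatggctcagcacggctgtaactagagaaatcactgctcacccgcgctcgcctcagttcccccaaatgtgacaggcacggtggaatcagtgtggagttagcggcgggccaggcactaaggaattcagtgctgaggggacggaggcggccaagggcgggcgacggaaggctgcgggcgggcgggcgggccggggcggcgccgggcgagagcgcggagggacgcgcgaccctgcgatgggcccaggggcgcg
Plod1, chr4:147936747-147937026, minus strand: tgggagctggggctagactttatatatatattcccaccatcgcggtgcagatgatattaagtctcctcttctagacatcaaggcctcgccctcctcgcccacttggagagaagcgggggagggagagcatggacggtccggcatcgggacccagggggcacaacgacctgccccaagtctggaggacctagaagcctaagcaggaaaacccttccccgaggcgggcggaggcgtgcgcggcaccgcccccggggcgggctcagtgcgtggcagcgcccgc
Plod3, chr5:136986769-136987048, plus strand: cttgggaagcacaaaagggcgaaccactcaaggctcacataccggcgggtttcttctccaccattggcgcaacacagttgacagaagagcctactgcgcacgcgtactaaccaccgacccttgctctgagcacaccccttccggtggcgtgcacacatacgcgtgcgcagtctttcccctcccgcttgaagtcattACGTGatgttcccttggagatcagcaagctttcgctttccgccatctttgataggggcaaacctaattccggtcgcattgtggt

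Counted from the start base as 0, P4ha1 had CACGT at -16 to -12, P4ha2 had ACGTG at -78 to -74 and again at 10 to 14, and Plod3 had ACGTG at -54 to -50. P4ha3 and Plod1 had no match in this window. The motif was searched as ACGTG and CACGT, so that both strands were read and the palindrome CACGTG counted as a match on each. Of all 32851 RefSeq promoters of 300 bases, 19.6% held a match and 8.21% held at least 2. A match is a description of the letters and not of a bound site.

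The intervals called at 1 oxygen level in P4ha1 and P4ha2 were searched in the same way. Each held 23 matches, which was 0.958 per kb in the 24.0 kb of P4ha1 and 1.64 per kb in the 14.0 kb of P4ha2. Over all H3K27ac intervals without H3K4me3 the motif stood at 0.578 per kb in normoxia-only, 0.675 per kb in hypoxia-only and 0.668 per kb in shared intervals. Single shared intervals without H3K4me3 in the 10 windows ran from 0 per kb, as upstream of Loxl1, to 2.8 per kb upstream of Plod1. Both densities lay within that range. A 300-base stretch with the most matches, 3 in each gene, is shown on the plus strand with the matches in capitals, as no intronic stretch of that length, moved in steps of 10 bases, held more. Of all 300-base tiles of the H3K27ac intervals 15.6% held at least 1 match and 5.31% held at least 2. These tiles were fixed, whereas each stretch shown was the highest of many positions. The tile shares therefore do not give how rare 3 matches are in a stretch chosen in this way.
P4ha1, chr10:59368711-59369010: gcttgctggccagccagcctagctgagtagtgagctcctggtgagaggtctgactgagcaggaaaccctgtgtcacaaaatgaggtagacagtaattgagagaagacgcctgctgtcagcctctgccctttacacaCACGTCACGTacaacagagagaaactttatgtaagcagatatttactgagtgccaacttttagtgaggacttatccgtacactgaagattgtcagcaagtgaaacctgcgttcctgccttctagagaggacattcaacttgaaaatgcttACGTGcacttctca
P4ha2, chr11:54112311-54112610: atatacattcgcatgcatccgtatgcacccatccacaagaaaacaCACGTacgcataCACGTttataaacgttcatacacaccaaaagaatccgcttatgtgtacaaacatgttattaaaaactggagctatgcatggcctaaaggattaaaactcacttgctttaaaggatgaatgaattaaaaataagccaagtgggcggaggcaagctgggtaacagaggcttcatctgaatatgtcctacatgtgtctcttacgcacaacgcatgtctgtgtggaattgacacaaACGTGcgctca

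The base composition of the intervals also differed. The P4ha1 interval had a GC content of 42.1% with 21.1% of its bases in repeats, beside a median of 43.5% GC over the normoxia-only intervals without H3K4me3. The P4ha2 interval had 49.0% GC and 9.74% repeats, beside a median of 47.4% GC over the hypoxia-only ones. Whether base composition has a part in the calls was not tested.

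The lysyl hydroxylase genes differed in the extent of H3K27ac more than between oxygen levels. Their 3 windows together held 95 kb of H3K27ac in hypoxia and 92.5 kb in normoxia, and the difference of 2.5 kb lay at the start of Plod1. Plod2 accounted for 79.5 kb in each list.

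Plod1 (ENSMUSG00000019055.15) encodes lysyl hydroxylase 1, which acts on lysines of the collagen helix, and lies on chromosome 4 at 147909753-147936767 on the minus strand. Its window held 12.5 kb of H3K27ac in hypoxia and 10 kb in normoxia. The interval over its own start, 2.5 kb at chr4:147935001-147937500, carried H3K4me3 with the score 138 in both lists, and H3K27ac in hypoxia alone. Of its bases, 733 lay before the gene and 1767 within it. With it, the covered share of the gene body was 6.54% in hypoxia and 0% in normoxia, since no other H3K27ac interval reached into the gene.

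The H3K27ac score at the Plod1 start was 54, at the 5.46 percentile of the hypoxia list, near the lowest value of 50. It touched an interval of 2.5 kb just upstream that was called at both oxygen levels, with scores of 80 in hypoxia and 67 in normoxia. Normoxia H3K27ac therefore still lay within 1 kb of the Plod1 start but not on it. The remaining intervals of the window lay at the starts of neighbours, Mfn2 on the downstream side and 2510039O18Rik on the upstream side. The H3K27ac call at the Plod1 start was no longer made when the lowest-scoring 25% of peaks was left out.

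Plod2 (ENSMUSG00000032374.14) encodes lysyl hydroxylase 2, which modifies the telopeptides at the ends of the collagen helix, and lies on chromosome 9 at 92542223-92608428 on the plus strand. It had the most H3K27ac of the 10 windows, 79.5 kb or 74.9% of the window, at either oxygen level. The 5 intervals ran with short gaps from -4.22 to 80.8 kb relative to the 5′ end, past the 3′ end, and covered 91.7% of the gene body. The 6.5 kb promoter interval with H3K4me3 had the score 1000 in both lists.

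The scores within Plod2 differed between the lists although the intervals did not. The 33.5 kb interval after the promoter scored 115 in hypoxia and 1000 in normoxia, which moved it from the 51.7 to the 90.6 percentile of its list. The 20.0 kb interval after it scored 70 and 102, which moved it from the 22.3 to the 49.9 percentile. The 17.0 kb interval over the 3′ end scored 1000 in both. The short interval upstream scored 60 and 67, so no Plod2 interval scored higher in hypoxia.

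Plod3 (ENSMUSG00000004846.10) encodes lysyl hydroxylase 3, which also transfers sugars to hydroxylysine, and lies on chromosome 5 at 136987019-136996648 on the plus strand. It had a single interval, 3.0 kb over its start with both marks at both oxygen levels. This interval covers the start of Znhit1 as well, so its marks cannot be assigned to Plod3 alone. The H3K27ac score was 140 in hypoxia and 128 in normoxia. It held 10 matches of ACGTG or CACGT, or 3.33 per kb, the highest density of the 36 intervals.

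The lysyl oxidase genes of this set, which leaves out Loxl4, differed widely in H3K27ac cover of the gene body. It ran from 100% in Lox to 4.03% in Loxl2 at either oxygen level. Their 4 windows held 86.8 kb in hypoxia and 83.3 kb in normoxia, and the difference of 3.5 kb was an interval at the 3′ end of Loxl3.

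Lox (ENSMUSG00000024529.14), which encodes the founding lysyl oxidase, lies on chromosome 18 at 52516067-52529867 on the minus strand. The whole gene body (100%) lay under H3K27ac at either oxygen level, as did 26.0 kb of its window. The promoter interval of 6.0 kb carried H3K4me3 and had the H3K27ac score 1000 in both lists. The 12.0 kb interval over the rest of the gene scored 76 in hypoxia and 83 in normoxia, and the 8.0 kb interval upstream 67 and 110, from the 19.3 to the 54.7 percentile. A further 16.5 kb interval, called in both, lay 27134 bp from the gene body, beyond the window, and had its nearest start in Lox.

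Loxl1 (ENSMUSG00000032334.10), whose product crosslinks tropoelastin into elastic fibres, lies on chromosome 9 at 58287738-58313186 on the minus strand. Its window held 28.5 kb of H3K27ac and 75.4% of its gene body was covered in each list. Of its 5 H3K27ac intervals, 4 had equal scores in both lists. The exception was the 3.0 kb interval just upstream of the promoter, with 1000 in hypoxia and 103 in normoxia, from the 88.9 to the 50.6 percentile. This was the largest percentile difference towards hypoxia among the intervals shared by the lists in the 10 windows.

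Loxl2 (ENSMUSG00000034205.16), which encodes a lysyl oxidase known to crosslink collagen IV, lies on chromosome 14 at 69609068-69695834 on the plus strand. Neither mark was called within 1 kb of its start at either oxygen level. The window of 127 kb, the longest of the 10, held 3.5 kb of H3K27ac in each list, in an interval 81.4 to 84.9 kb after the 5′ end. That interval scored 1000 in both lists and had its nearest start in R3hcc1, and the H3K4me3 interval of the window lay at the start of R3hcc1. The covered share of the Loxl2 gene body was 4.03%.

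Loxl3 (ENSMUSG00000000693.10), a lysyl oxidase gene known from palate and spine development, lies on chromosome 6 at 83034173-83052562 on the plus strand. Its window held 28.8 kb of H3K27ac in hypoxia and 25.3 kb in normoxia, and the share of the gene body covered was 29.3% and 10.3%. The difference was an interval of 3.5 kb at chr6:83049001-83052500, called in hypoxia alone, over exons 7 to 14 of 14, with 76.1% of its bases exonic. Its score was 50, the lowest value in the list, at the 0.362 percentile. It touched the interval at the starts of Aup1 and Htra2, which was called in both lists, and its own nearest start was that of Htra2. It too was absent without the lowest-scoring 25% of peaks.

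The intervals at the 5′ side of Loxl3 were also shared with a neighbour. The promoter interval covered the starts of Dok1 and Loxl3, and scored 128 in hypoxia and 119 in normoxia. The 18.5 kb interval before it had its nearest start in Dok1 and scored 120 and 128. In a gene-dense window such as this, the mark cannot be assigned to 1 gene from its position.

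**Figure D3:**
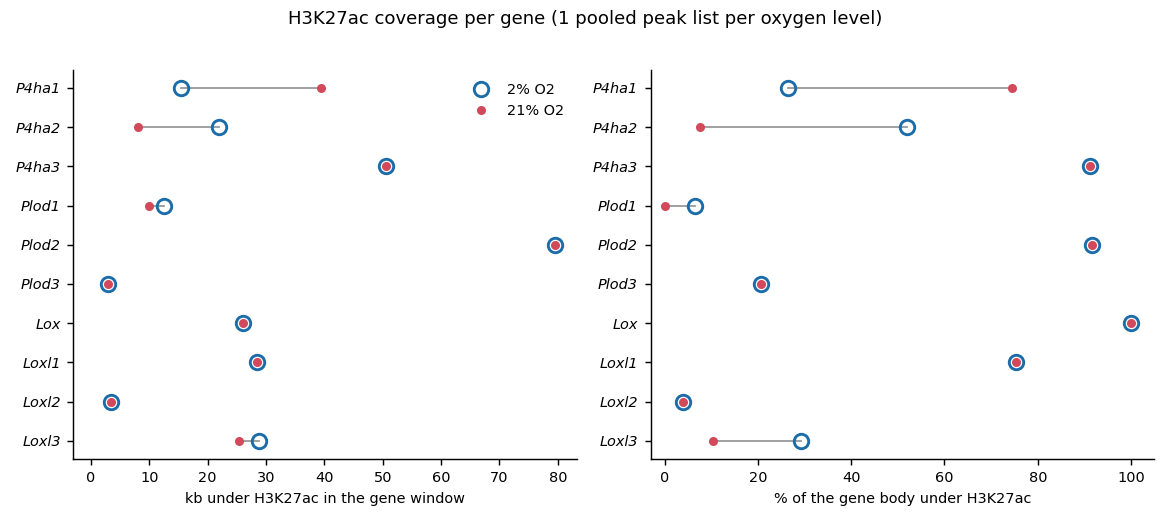
H3K27ac in the peak list of 2% oxygen (open blue circles) and of 21% oxygen (filled red circles) for each gene, as kb in the gene window on the left and as a percentage of the gene body on the right. The symbols coincide in 6 genes, and the longest lines are those of P4ha1 (15.5 against 39.5 kb) and P4ha2 (22.0 against 8.0 kb), in opposite directions.

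The windows of the 10 genes held much H3K27ac at either oxygen level. The median window had 24.0 kb in hypoxia and 25.7 kb in normoxia, beside 2.5 kb and 2.5 kb over all protein-coding genes and 4.0 kb and 4.0 kb over the 12928 protein-coding genes with H3K4me3 at a start. The median H3K4me3, 4.25 kb a window, was close to the 4.5 kb of those 12928 genes. The median window length was 69.3 kb for the 10 genes and 65.6 kb for the 12928.

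The covered share of the gene body varied widely among the members. In order in hypoxia, Lox (100%), Plod2 (91.7%), P4ha3 (91.2%), Loxl1 (75.4%), P4ha2 (52.0%), Loxl3 (29.3%), P4ha1 (26.4%), Plod3 (20.6%), Plod1 (6.54%) and Loxl2 (4.03%) made up the series. In normoxia P4ha1 (74.4%) stood just below Loxl1, and P4ha2 (7.62%), Loxl3 (10.3%) and Plod1 (0%) stood below Plod3. No spread over replicates is known, so neighbours in this order are not told apart. Among the 12928 genes with H3K4me3 at a start the median was 4.82% in hypoxia and 4.64% in normoxia, and 5.49% and 5.17% of these genes reached a cover of at least 90%. A higher share than that of P4ha1 was found in 20.0% of them in hypoxia and 6.78% in normoxia. For P4ha2 these values were 10.8% and 41.1%. The normoxia share of P4ha1 includes the interval that was part of the choice of genes, and the choice used this contrast. Nothing is therefore read from these shifts in place.

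**Figure D4:**
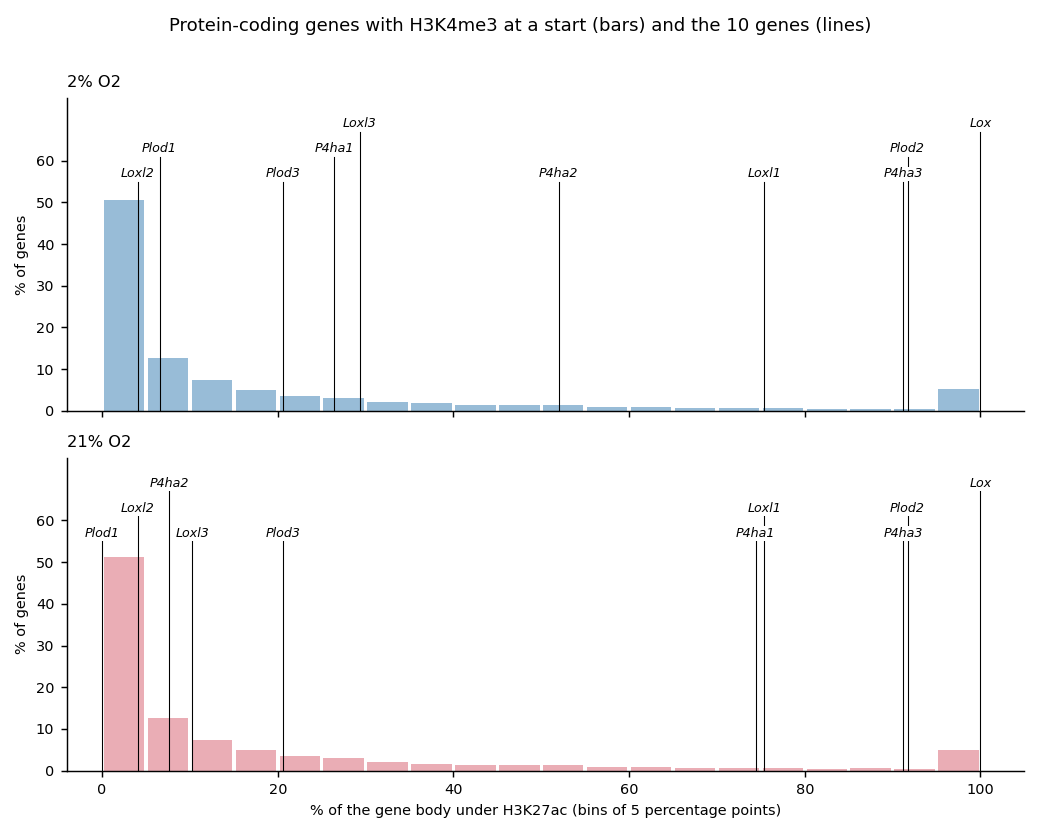
Share of the gene body under H3K27ac (x axis, %) at 2% oxygen above and 21% oxygen below; bars give the percentage of the 12928 protein-coding genes with H3K4me3 at a start in each bin of 5 percentage points, and lines mark the 10 genes. Most genes lie in the lowest bin, and Lox, Plod2, P4ha3 and Loxl1 lie far to the right at both oxygen levels. P4ha1 lies further right at 21% oxygen than at 2%, and P4ha2 lies further left.

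The kinds of interval in the 10 windows were set beside those of the whole segmentation. H3K27ac without H3K4me3, called at both oxygen levels, made up 20 of the 36 intervals (55.6%) and 32.5% of all. On 11 (30.6%), beside 32.3% of all, the marks coincided in hypoxia and in normoxia, on 1 more (the Plod1 start) they did so in hypoxia only, and H3K4me3 without H3K27ac was called on 1 (2.78%), beside 31.6%. Of the 35 intervals with H3K27ac, 4 were called at 1 oxygen level alone, or 11.4% with a 95% Wilson interval of 4.54 to 26.0, which covers counting error only. Over all lists the share was 5.23% (4.89 to 5.60), and the choice of genes used this contrast. Of the 36 intervals, 13 lay within 1 kb of a start of the member itself, 3 of these also of another gene, 5 lay at the start of another gene alone and 18 at none.

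Scores were compared at the 31 H3K27ac intervals that both lists held in these windows, as raw scores and as percentiles within each list. The raw score was higher in hypoxia in 10, higher in normoxia in 9 and equal in 12, of which 8 were at 1000 in both lists. Over all 14614 shared intervals 39.9% had a higher raw score in hypoxia and 16.6% a higher one in normoxia. The median percentile change from hypoxia to normoxia was 1.67 points in these windows and 1.67 points over all shared intervals, which is the change of any interval at 1000 in both lists. The middle 50% of the changes in the 10 windows lay between -5.25 and 9.04 points, and the extremes were -38.3 (upstream of Loxl1) and 38.9 (within Plod2).

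The shared intervals were also split by H3K4me3, a split made after the values were seen. It is not given over all shared intervals, so it is not read as particular to these genes. The counts use raw scores, and the percentile changes ran from -22.4 to 5.32 points with H3K4me3 and from -38.3 to 38.9 points without. Of the 11 shared intervals that carried H3K4me3, 5 scored higher in hypoxia, 6 were equal and 0 scored higher in normoxia. Of the 20 without it, 5 scored higher in hypoxia, 6 were equal and 9 scored higher in normoxia. The wide ones did not all go the same way. Higher in normoxia were the 40.0 kb interval of P4ha3, the 33.5 and 20.0 kb intervals of Plod2, the 18.5 kb interval of Loxl3 and the 12.0 kb interval of Lox. The 17.0 kb interval of Plod2 and the 16.0 kb interval of Loxl1 were equal, and the 9.5 kb interval of P4ha1 scored higher in hypoxia. H3K4me3 scores were equal in both lists at 13 of 13 intervals here and at 14600 of 14600 in all. With every score repeated between the lists, they give no information on a difference in H3K4me3 between the oxygen levels.

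**Figure D5:**
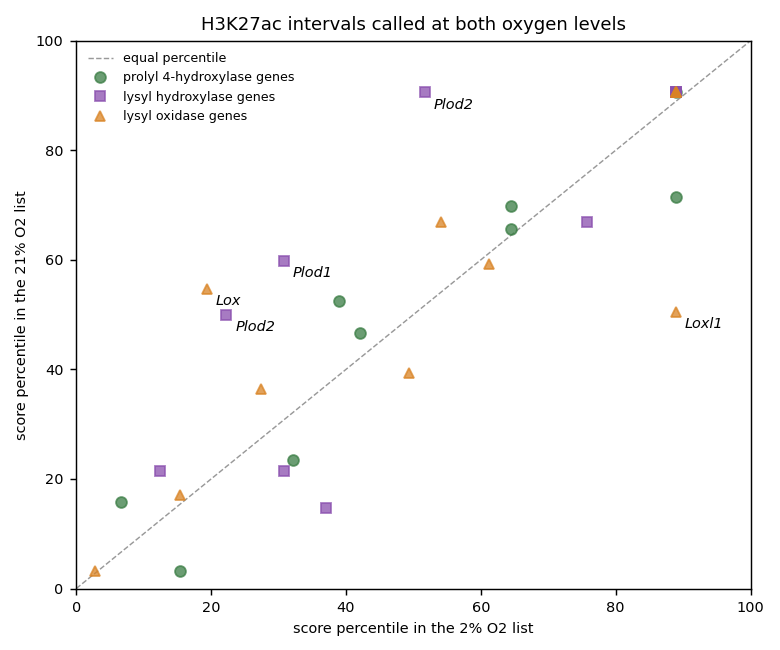
Percentile of the H3K27ac score within the 2% oxygen list (x axis) and within the 21% oxygen list (y axis) for the 31 intervals called in both lists, by gene family; the dashed line marks equal percentiles and intervals at 1000 in both lists lie together at the upper right. The points farthest from the line are a 33.5 kb interval of Plod2, the upstream interval of Lox and an interval beside Mfn2 in the Plod1 window above it, and the upstream interval of Loxl1 below it.

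The other genes of collagen processing were read from a list of 24 genes, which holds the prolyl 3-hydroxylases and their partners, chaperones, glycosyltransferases, propeptide proteases and Loxl4. H3K4me3 lay at a start in 24 of 24 at either oxygen level, against 58.9% of all protein-coding genes, and H3K27ac in 15 of 24 at either, against 37.6% in hypoxia and 37.0% in normoxia. No H3K27ac was called in the windows of 6, Adamts3, Colgalt2, Loxl4, P3h2, Pcolce2 and Tll2. Hypoxia-only H3K27ac was found in 2 of the 24 windows, beside 4.70% of all protein-coding genes, normoxia-only H3K27ac in 0, beside 1.15%, and a condition-specific H3K4me3 interval in 0, beside 0.0638%.

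Bmp1, the gene of the protease that removes the procollagen C-propeptide and activates lysyl oxidase, held a 14.0 kb hypoxia-only H3K27ac interval at chr14:70503001-70517000, from 3.23 to 17.2 kb after its 5′ end. Its window had 18.5 kb of H3K27ac in hypoxia and 4.5 kb in normoxia, and the score of the interval was 61. P3h1, a prolyl 3-hydroxylase gene, had 24.0 kb and 13.5 kb, and its 10.5 kb hypoxia-only interval at chr4:119245501-119256000, with the score 52, had its nearest start in Cldn19. The scores of the Bmp1 and P3h1 intervals both lie under 73, the limit of the lowest-scoring 25% of the hypoxia H3K27ac list. P4hb, the beta subunit that all 3 alpha subunits share, held 15.5 kb in either list.

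At the limit of 20 kb, the 18.5 kb interval of Loxl3 ran across the edge of the window, and only its part within the window was counted. The farthest intervals wholly inside were a 3.5 kb H3K27ac interval 10738 bp from Loxl1 and an H3K4me3 interval 10167 bp from Loxl2. The nearest outside lay 23019 bp from Plod3, nearest to Fis1, and 24439 bp from Loxl3, nearest to Pcgf1, and both were called at both oxygen levels.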

How the data were processed

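Reads had been aligned by the authors to mm10 (Bowtie2) and deduplicated (Picard) before chromstaR was run in its differential mode (bins of 1000 bp, steps of 500 bp, mapping quality of at least 15). Versions are not given in the sources used here. The authors deposited 4 peak lists, each pooling 2 libraries, with positions and a peak score whose definition is not given in the sources used here. Within a list the score was used to rank or filter peaks. Raw scores were also set side by side between the lists, whose medians for H3K27ac were 111 in hypoxia and 102 in normoxia. A raw direction can therefore differ from that of the percentiles. The joint model assigns both oxygen levels together, so list boundaries depend on each other.

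Genes were taken from GENCODE M21 (basic) of the same build. An interval was condition-specific when no peak for that mark at the other oxygen level overlapped it, and it belonged to a gene when it overlapped the gene body or 20000 bp on either side. A start was marked when a peak lay within 1000 bp of any annotated start. Python 3.11.15, pandas 2.3.3, numpy 2.4.6, scipy 1.17.1, pysam 0.24.0 and samtools 1.23.1 were used, and the interval arithmetic was tested on simulated data. With 1 pooled list per group there was no test, and depth per sample was not analysed here.

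The members and the lists of other genes were chosen with earlier results of these data known. All 10 members are named. The counts over the blood marker list are not reported here. A gene of the collagen processing list is named when its window held a condition-specific interval or its start lacked H3K4me3, and others of that list were named after their values were seen. The genes most like P4ha1 were the 5 with the most bases of gene body under normoxia-only H3K27ac, ties kept. The alternatives were the gene body alone, 50000 bp on either side, the nearest start, a counted list without its lowest-scoring 25%, no peak of the other oxygen level within 1000 bp, joining of peaks within 1000 bp, a cover of at least 50%, and starts at 0 bp, at 2500 bp or at the outermost 5′ end only.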

Additional observations from a re-analysis of the deposited data

How the results depend on the processing

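The count of genes with a condition-specific H3K27ac interval was 4. It was 1 (P4ha2) without the lowest-scoring 25% of peaks, 1 (P4ha1) when no peak of the other oxygen level was allowed within 1000 bp and 1 (P4ha1) when peaks within 1000 bp were joined, and 3 by the nearest start, where Loxl3 was lost to Htra2. The condition-specific share of H3K27ac intervals was 11.4%, and it was 3.70% without the lowest-scoring 25%, 2.86% under the 1000 bp rule, 5.26% (1 of 19) with joined peaks and 18.2% (4 of 22) in gene bodies. H3K27ac in hypoxia minus normoxia was -4.0 kb in all windows together, -4.73 kb in gene bodies, -0.5 kb with 50000 bp on either side, -7.50 kb by the nearest start and -4.50 kb without the lowest-scoring 25%. The 24.0 kb of P4ha1 became 0 kb without the lowest-scoring 25%, since the score of 63 lies under that limit of 71, and stayed at 24.0 kb in the other 5 alternatives computed for it. Of the remaining values under alternatives, counts stayed within 1.5 times the main count, shares, 5.26% and 18.2% included, lay within the Wilson interval of the main share, and the score rank change was equal. That Wilson interval is wide and also holds the 5.23% over all lists, so lying within it does not show that a share was unchanged. H3K27ac at a start in normoxia was 8 in place of 9 on the start base and without the lowest-scoring 25%, where Plod1 was lost. The 50% cover rule could move nothing because overlapping intervals were identical. No library could be left out, since each list pools its group. No paired analysis was possible because each list pools both libraries of its group and no result comes from a test.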

Other observations

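The wide intervals called at both oxygen levels in P4ha3 and Plod2 differed in base content. The 40.0 kb interval of P4ha3 had 46.8% GC and 23 matches of ACGTG or CACGT, or 0.575 per kb, whereas the 3 wide Plod2 intervals lay between 39.3% and 40.9% GC with 0.657 to 0.824 matches per kb. The H3K27ac intervals upstream of P4ha1 and of Loxl1 and the one nearest to Stoml1 held 0 matches, as did the Plod1 interval called in hypoxia alone.

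Some genes of the collagen processing list were broadly covered, with the same share at both oxygen levels. Fkbp10, a collagen chaperone gene, and Slc39a13, a zinc transporter gene, had 100% of their gene bodies under H3K27ac in each list, in windows of 19.5 and 20.0 kb of H3K27ac. Pcolce, which encodes an enhancer of the procollagen C-proteinase, had 72.4% and Serpinh1, the gene of the collagen chaperone HSP47, had 60.3%. These genes were chosen after their values were seen.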
